A study of Mus musculus with 4 samples.

Results

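The 10 genes described here mark microglia, the resident macrophages of the brain. They are Cx3cr1, Csf1r, P2ry12, Aif1, Tyrobp, Fcer1g, C1qa, C1qb, C1qc and Trem2, taken by symbol from the 27293 named genes of the count table. They were measured by RNA-seq in mouse telencephalic tissue at embryonic day 13 (E13), in 2 WT and 2 cKO libraries of C57BL/6 background. The cKO genotype is STINGf/f;Nestin-Cre, in which Cre recombinase under the Nestin promoter removes the floxed Sting gene in neural progenitors and the cells that arise from them. The purpose of the comparison was to find transcripts that depend on STING, the cytosolic DNA-sensing adaptor, in the embryonic cortex. Whether a library came from 1 embryo or from pooled embryos is not given in the sources used here, so the p-values measure the spread between these 4 libraries only.

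Microglia do not arise from neural progenitors. Their precursors form in the yolk sac and enter the neural tube in early embryogenesis, and they depend on the CSF1R receptor to survive. Nestin is a gene of neural progenitors, and the microglia in this tissue belong to a lineage that does not pass through them. In embryonic cortex microglia are a small minority that lies among the progenitors, and the transcription factor PU.1 (Spi1) is needed for their formation. The members fall into 4 sets by role: receptors for signals in the tissue (Csf1r, Cx3cr1, P2ry12), TREM2 with the adaptors that carry an immunoreceptor tyrosine-based activation motif (ITAM) (Trem2, Tyrobp, Fcer1g), the chains of complement component C1q (C1qa, C1qb, C1qc) and the actin-binding protein IBA1 (Aif1), whose antibody is a common stain for these cells.

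RefSeq promoter windows of GRCm38.p6, from 250 bases before to 50 bases after a gene's start, could be had for 7 of the 10 members. For 4 of them, a stretch of 100 bases free of annotated exons lay upstream of the start. It ended at the start for C1qb and Trem2, while for Fcer1g and Aif1 the 16 exonic bases directly before the start were left out. The stretches are shown because the 4 genes span 3 of the sets and differ in matches to the purine-rich core bound by PU.1. Capitals mark GAGGAA or AGGAAG, which overlap each other in GAGGAAG, read on either strand (TTCCTC and CTTCCT on the other).
Fcer1g, chr1:171234366-171234465, minus strand: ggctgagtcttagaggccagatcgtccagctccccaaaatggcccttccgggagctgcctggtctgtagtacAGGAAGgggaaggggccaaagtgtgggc
C1qb, chr4:136886201-136886300, minus strand: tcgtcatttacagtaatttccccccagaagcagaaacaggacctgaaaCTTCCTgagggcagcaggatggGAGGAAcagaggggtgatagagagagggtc
Trem2, chr17:48346301-48346400, plus strand: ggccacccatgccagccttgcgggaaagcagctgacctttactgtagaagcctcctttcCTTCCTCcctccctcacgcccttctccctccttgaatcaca
Aif1, chr17:35176069-35176168, minus strand: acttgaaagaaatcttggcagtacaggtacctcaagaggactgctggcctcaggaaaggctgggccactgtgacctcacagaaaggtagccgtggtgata
The C1qb stretch held 2 separate matches, the Trem2 stretch held overlapping matches to both strings, the Fcer1g stretch held 1 match and the Aif1 stretch held none. Over the whole windows, GAGGAA was found in 4 of the 7 members and in 28.3% of all 32851 windows. AGGAAG was found in 5 of the 7 and in 35.4% of all windows, and either string in 6 of the 7 and in 46.0% of all windows. These 2 strings were settled after several had been scanned in the members' windows, so the counts are a description of letters and say nothing about binding.

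The libraries held 17209654 to 18533391 counts each. The counts of Sting itself (Tmem173) were 20 and 19 in the WT libraries and 18 and 22 in the cKO libraries, with a log2 fold change of 0.02 (SE 0.45, adjusted p = 0.9999, edgeR), so its count over the whole gene did not set the cKO libraries apart, and WT and cKO below mean the libraries labelled so. The title of WT 2 carries "nes" where that of WT 1 carries "wt". The counts of 4 Y-linked genes, which mark male tissue, summed to 0 in WT 2 against 1848 to 3002 in the others. WT 1 and WT 2 thus also differed in the presence of male tissue. The part of sex in the gaps between them was not tested. WT 1 stood apart in markers of tissue around the cortex: the summed counts per 1000000 counts of the library (CPM) of meningeal and mesenchymal genes were 302 in WT 1 against 41.6 to 80.4 in the other libraries, and those of choroid plexus genes 52.0 against 6.63 to 10.2.

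No member passed the test of cKO against WT. All 10 members passed the filter on low counts, and 0 of 10 were called by edgeR's quasi-likelihood test at a fold change of at least 2 with an unadjusted p of at most 0.05, where 0.811% of the 16145 genes tested were called (131 genes). At an adjusted p under 0.05, 0 of 10 were called, as were 0% of all genes. At an unadjusted p under 0.05 alone the members again counted 0 of 10, where the share of all genes was 1.23%, and DESeq2 called 0 of 10 at either threshold. The fitted log2 fold change was below 0 for 9 of the 10 members, with a median of -0.15, beside a median of -0.01 over all genes tested. In tissue RNA, fewer cells of a type and less RNA per cell cannot be told apart.

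**Figure D1:**
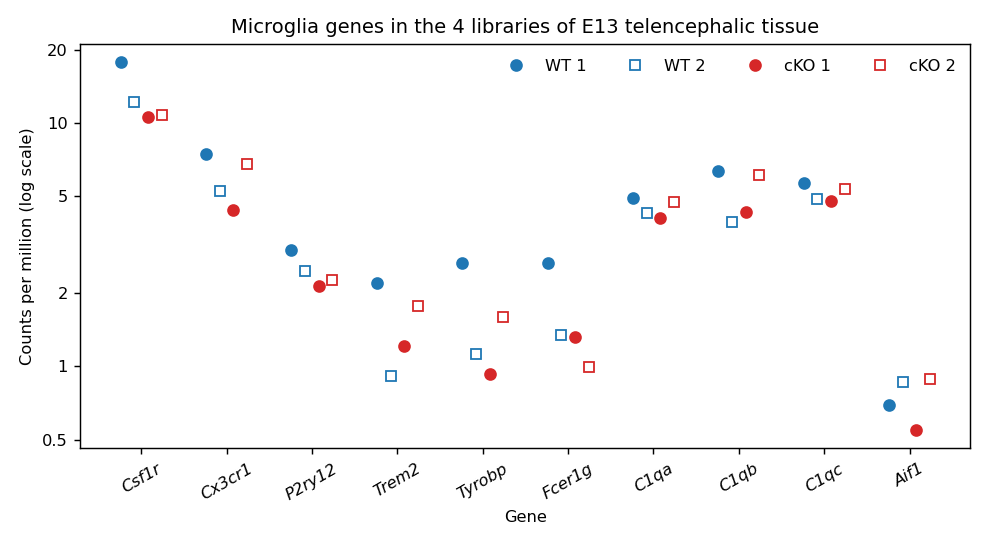
CPM (log axis) of each of the 10 microglia genes in each library, with 1 point per library, WT in blue, cKO in red, replicate 1 filled and replicate 2 open. WT 1 is the highest point for 9 of the 10 genes, and both cKO points lie below both WT points for Csf1r, P2ry12 and Fcer1g.

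Csf1r, the receptor for the cytokines CSF1 and IL-34 (chr18:61105572-61132149, plus strand, GRCm38), had the most counts of the 10 members. WT 1 held 17.8 CPM (307 counts) and WT 2 held 12.2 (227 counts), against 10.6 (194 counts) for cKO 1 and 10.8 (196 counts) for cKO 2. The cKO libraries were both lower than either WT library, and the cKO pair was close together while the WT pair was not. The log2 fold change was -0.47 (SE 0.25, 95% interval -1.05 to 0.10, unadjusted p = 0.0924, adjusted p = 0.9999, edgeR), the smallest unadjusted p among the members. WT 1 exceeded WT 2 by 1.46-fold (95% exact interval 1.22 to 1.74, counting error only), so the WT libraries differed from each other beyond counting error. Without WT 1 the log2 fold change was -0.19. The gene shares 873 of its 5774 exon bases (15.1%) with Hmgxb3 on the opposite strand, which had 844 to 912 counts, and whether the counting used strand is not given in the sources used here, so part of the Csf1r count is uncertain.

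Cx3cr1, the receptor for the neuronal chemokine fractalkine (chr9:119901616-120069879, minus strand), stood at 7.50 CPM and 5.29 CPM in WT 1 and WT 2, and at 4.39 and 6.80 in cKO 1 and cKO 2. The highest and the next highest library came from different groups, so the groups overlapped. The log2 fold change was -0.18 (SE 0.34, interval -0.95 to 0.60, adjusted p = 0.9999, edgeR). Within groups, WT 1 was 1.42-fold above WT 2 (1.08 to 1.86) and cKO 2 was 1.55-fold above cKO 1 (1.16 to 2.08), each more than counting error. P2ry12, the purinergic receptor through which microglia sense ADP (chr3:59216272-59262871, minus strand), stood at 3.02 and 2.48 CPM in WT 1 and WT 2, and at 2.14 and 2.27 in cKO 1 and cKO 2. The cKO values were the lower pair, by a small margin: the log2 fold change was -0.31 (SE 0.36, interval -1.14 to 0.52, adjusted p = 0.9999, edgeR), and WT 1 and WT 2 did not differ beyond counting error (1.22-fold, 0.803 to 1.85).

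Trem2, a receptor for lipids and lipoproteins (chr17:48346401-48354147, plus strand), ranged widely: WT 1 held 38 counts (2.21 CPM) and WT 2 held 17 (0.917), with 22 (1.21) for cKO 1 and 32 (1.77) for cKO 2. Both cKO libraries lay between the WT libraries. WT 1 was 2.41-fold above WT 2 (1.33 to 4.55, counting error only), the widest gap within a group for any member, and the log2 fold change of -0.05 (SE 0.53) had an interval of -1.26 to 1.16, wide enough to hold a change of 2-fold either way. Without WT 1 it was 0.69, and without WT 2 it was -0.53. Tyrobp, which encodes DAP12, the adaptor that TREM2 signals through (chr7:30413760-30417585, plus strand), stood at 2.67 and 1.13 CPM in WT 1 and WT 2, and at 0.932 and 1.60 in cKO 1 and cKO 2. It shared with Trem2 the large gap between the WT libraries, 2.36-fold (1.38 to 4.16), and its log2 fold change was -0.56 (SE 0.54, interval -1.81 to 0.68, adjusted p = 0.9999, edgeR). Without WT 1 the Tyrobp value was 0.16. Fcer1g, the common gamma chain of Fc receptors (chr1:171229572-171234365, minus strand), stood at 2.67 and 1.35 CPM in WT 1 and WT 2, and at 1.32 and 0.995 in cKO 1 and cKO 2. The groups did not overlap, but WT 2 with 25 counts and cKO 1 with 24 were nearly level. Its log2 fold change of -0.78 (SE 0.48, interval -1.89 to 0.33, unadjusted p = 0.144, edgeR) was the lowest of the 10, and it was -0.23 without WT 1.

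The C1q chains had fitted values within 0.05 of 0. C1qa, C1qb and C1qc encode the A, B and C polypeptides that assemble into C1q, the recognition protein of the classical complement pathway, and they are neighbours on the minus strand of chromosome 4 within 18675 bases, with 3616 bases between C1qb and C1qc and 2851 between C1qc and C1qa. C1qa (chr4:136895917-136898803) stood at 4.94 and 4.26 CPM in WT 1 and WT 2 and at 4.06 and 4.75 in cKO 1 and cKO 2, and its log2 fold change was -0.05 (SE 0.30, interval -0.75 to 0.65). C1qc (chr4:136889804-136893065) was at 5.69, 4.86, 4.77 and 5.36 CPM in the same order of libraries, and its log2 fold change was -0.05 (SE 0.29, interval -0.72 to 0.62). In both genes the 4 libraries took the same order, WT 1, cKO 2, WT 2 and cKO 1, and the highest exceeded the lowest by 1.22-fold and 1.19-fold, the narrowest ranges of the 10 members. C1qb (chr4:136880129-136886187) stood at 6.39 and 3.94 CPM in WT 1 and WT 2 and at 4.33 and 6.14 in cKO 1 and cKO 2. It split the libraries within each group rather than between them: WT 1 was 1.62-fold above WT 2 (1.20 to 2.21) and cKO 2 was 1.42-fold above cKO 1 (1.05 to 1.91), and the log2 fold change was 0.03 (SE 0.35, interval -0.78 to 0.85). The intervals of the 3 chains and of Cx3cr1 lay inside a 2-fold change in either direction. Those of the other 6 members did not.

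Aif1 (chr17:35170991-35176068, minus strand) had the fewest counts of the members. WT 1 held 12 counts (0.697 CPM) and WT 2 held 16 (0.863), with 10 (0.548) for cKO 1 and 16 (0.884) for cKO 2. It was the only member whose highest library was cKO 2 and not WT 1, and neither the WT pair nor the cKO pair differed beyond counting error. The log2 fold change was -0.12 (SE 0.53, interval -1.33 to 1.10, adjusted p = 0.9999, edgeR). Its levels were a few times the 0.162 to 0.174 CPM that 3 counts represent, and the interval holds a change of 2-fold either way.

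**Figure D2:**
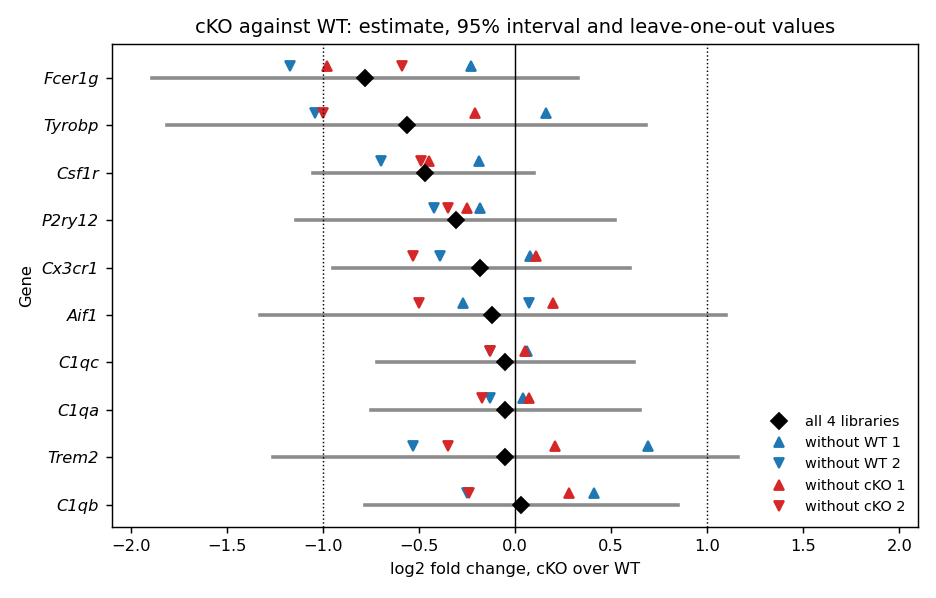
Log2 fold change of cKO over WT for each member from edgeR, with the estimate from all 4 libraries as a black diamond, its 95% interval as a grey bar and the estimate with each library left out as a triangle. The intervals of all 10 genes cross 0, the dotted lines mark a 2-fold change, and the blue upward triangles, without WT 1, lie to the right of the diamonds for every member but Aif1.

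The libraries also differed within the groups. The cKO libraries were both below either WT library for 3 of 10 members (Csf1r, P2ry12 and Fcer1g), where 11.2% of all genes tested did so, and both lay above for 0 of 10, where 10.4% did. WT 1 was the highest of the 4 libraries for 9 of 10 members, where it was highest for 27.3% of all genes tested. WT 1 exceeded WT 2 beyond counting error in 6 members (Cx3cr1, Csf1r, Tyrobp, Fcer1g, C1qb and Trem2), and cKO 2 exceeded cKO 1 in 2 (Cx3cr1 and C1qb). The lowest library was cKO 1 for 7 members, WT 2 for C1qb and Trem2, and cKO 2 for Fcer1g. The members share each library's cells and depth, so these counts are not independent of each other.

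Summed, the 10 members held 923 and 692 counts in WT 1 and WT 2 (53.6 and 37.3 CPM), and 626 and 749 in cKO 1 and cKO 2 (34.3 and 41.4 CPM). They made up 0.00536%, 0.00373%, 0.00343% and 0.00414% of all counts in those libraries. The groups overlapped, since cKO 2 lay above WT 2. The WT mean was 45.5 ± 11.5 CPM and the cKO mean 37.9 ± 5.0 CPM (SD, n = 2 each), a difference of -0.26 on the log2 scale beside an SD of 0.29 between libraries of a group, and 0.02 without WT 1. The pooled counts gave a cKO to WT ratio of 0.838 (0.779 to 0.901), and the ratio of WT 1 to WT 2 was 1.44 (1.30 to 1.59) and that of cKO 2 to cKO 1 was 1.21 (1.08 to 1.34). These intervals cover counting error only, and the gap between the WT libraries was wider than that between the groups. The 3 C1q chains summed to 17.0, 13.1, 13.2 and 16.3 CPM (cKO to WT ratio 0.982, 0.869 to 1.11), while the other 7 members summed to 36.6, 24.3, 21.2 and 25.1 CPM (0.766, 0.699 to 0.839). The WT 1 to WT 2 ratio was 1.30 (1.10 to 1.55) for the chains and 1.51 (1.33 to 1.71) for the other 7. Whether the chains differ from the other 7 was not tested.

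Levels of different genes were compared per length, as CPM per kb of exon (RPKM), on the union of the exons in GENCODE M21. C1qb stood at 4.78 ± 1.14 and C1qa at 4.33 ± 0.396 (mean ± SD over all 4 libraries), followed by C1qc at 2.68 ± 0.226, Tyrobp at 2.38 ± 1.17, Csf1r at 2.23 ± 0.585 and Fcer1g at 1.81 ± 0.851. Cx3cr1 followed at 1.33 ± 0.314, P2ry12 at 0.973 ± 0.153, Aif1 at 0.488 ± 0.103 and Trem2 at 0.308 ± 0.117. Among neighbours in this order, C1qa differed from C1qc and P2ry12 from Aif1 by more than their SDs summed, and the others did not differ beyond their spread. The order depends on the gene model: the Trem2 union of 4946 bases includes a transcript with a retained intron, and over the longest protein-coding transcript of 1088 bases the level of Trem2 was 1.40, near that of Cx3cr1. On that scale C1qc rose to 4.30, level with C1qa at 4.33, and Aif1 to 0.855. Within a library the ratio of C1qc to C1qa per length was steady, at 0.621 and 0.614 in WT 1 and WT 2 and 0.633 and 0.607 in cKO 1 and cKO 2. The ratio of C1qb to C1qa was not, at 1.24, 0.883, 1.02 and 1.23.

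**Figure D3:**
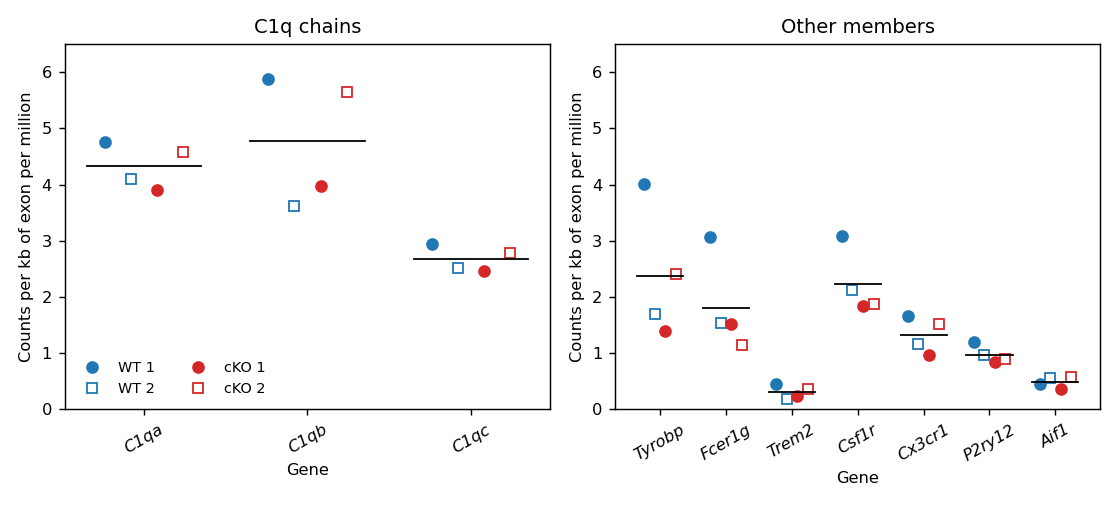
Level per exon length (CPM per kb of exon, linear axis from 0) of the C1q chains, left, and of the other 7 members, right, with 1 point per library and a black line at the mean of the 4 libraries. C1qa and C1qb lie highest and Aif1 and Trem2 lowest, and the WT 1 point stands away from the other libraries for Tyrobp, Fcer1g and Csf1r.

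The ligands and partners of the members were present in the same tissue. Csf1 stood at 11.5 and 9.77 CPM in WT 1 and WT 2 and at 10.6 and 12.7 in cKO 1 and cKO 2, with a log2 fold change of 0.14 (SE 0.24). Il34, the other CSF1R ligand, held 20 and 6 counts for the WT libraries and 3 and 9 for the cKO libraries and did not pass the filter. Cx3cl1, which encodes fractalkine, held 315 and 248 counts for WT 1 and WT 2, and 213 and 361 counts for cKO 1 and cKO 2 (log2 fold change 0.01, SE 0.30), so its libraries took nearly the order of its receptor, with WT 1 and cKO 2 high. Apoe, which encodes an apolipoprotein bound by TREM2, was at 55.1 CPM in WT 1 and between 25.6 and 33.7 in the other libraries (log2 fold change -0.53, SE 0.28), and -0.07 without WT 1. Clu, another TREM2 ligand, was at 25.3, 23.1, 18.0 and 22.6 CPM (log2 fold change -0.25, SE 0.20). Tgfb1, a cytokine that microglia need for their mature state, was at 6.28, 6.53, 4.99 and 6.19 CPM (log2 fold change -0.19, SE 0.28). None of the 5 ligand genes tested was called, and their median was -0.19. Per length, Csf1r stood at 1.42, 1.15, 0.919 and 0.783 times Csf1 in the libraries WT 1, WT 2, cKO 1 and cKO 2, and Cx3cr1 at 0.357, 0.345, 0.328 and 0.297 times Cx3cl1.

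Other genes of microglia and of the pathways of the members were also not called. Of 20 further microglia genes, 18 were tested, 0 were called and their median log2 fold change was -0.13. Those of high CPM included the lysosomal protease Lgmn at 31.0 to 39.9 CPM (log2 fold change 0.15, SE 0.19), the lysosomal protein gene Laptm5 at 9.16 to 13.9 CPM (-0.24, SE 0.26) and the lysosomal glycoprotein Cd68 at 8.42 to 12.9 CPM (0.34, SE 0.27). WT 1 exceeded WT 2 by 1.21-fold in the sum of these 20 genes, less than in the sum of the members. Siglech and Gpr34 are named here after their values were seen. Siglech, a sialic acid-binding lectin, was counted 12 and 17 times in the WT libraries and 33 and 23 times in the cKO libraries (log2 fold change 0.93, SE 0.47, unadjusted p = 0.0822, edgeR), the reverse of the order of Csf1r. Gpr34, a lysophospholipid receptor, was counted 17, 15 and 26 times in WT 1, WT 2 and cKO 1, and 0 times in cKO 2.

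Among 10 transcription factors of the myeloid lineage, all were tested, 0 were called and the median was -0.23. Sall1, which cortical progenitors express too, was at 153 to 204 CPM, Maf at 12.5 to 25.3 and Ikzf1 at 2.93 to 5.34. The CPM of Maf and Ikzf1 was lower in cKO than in WT without overlap, but by a small margin. For Maf, cKO 1 held 16.3 CPM and WT 2 held 16.5, and for Ikzf1, cKO 1 held 4.39 and WT 1 held 4.65. Their log2 fold changes were -0.52 (SE 0.26) and -0.44 (SE 0.33), neither called, and -0.19 and -0.55 without WT 1. Such an order of the groups was seen for 4 of the 10 factors and for 11.2% of all genes tested. Of 12 genes of ITAM signalling downstream of DAP12 and the gamma chain, 9 were tested and 0 called, with a median of -0.17. The kinase Syk was at 4.21 to 6.45 CPM, the kinase Lyn at 3.18 to 5.17, the adaptor Lat2 at 2.41 to 3.70 and the phosphatase Inpp5d at 3.89 to 4.48. Of 15 measured complement genes and receptors linked to C1q, 9 were tested and 0 called, with a median of -0.03. The most abundant were Calr at 521 to 680 CPM and Lrp1 at 430 to 469, genes that many cells express. Megf10 was at 25.5 CPM in cKO 2 and 43.5 to 47.7 in the other libraries, and the endothelial gene Cd93 at 22.2 to 38.8 CPM. The log2 fold change of Cd93, -0.49, had an unadjusted p of 0.0397 (edgeR) but missed the fold threshold, and it was -0.30 without WT 1.

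Markers of other cells that carry some of these transcripts were higher in WT 1 than in the other libraries. Border macrophages, which lie in the meninges and around vessels, also express Csf1r, Tyrobp, Fcer1g and C1q. The summed CPM of 11 genes that mark them was 74.3 for WT 1 and 28.8 for WT 2, with 33.0 for cKO 1 and 24.4 for cKO 2, a WT 1 to WT 2 ratio of 2.58 beside 1.44 for the members. Of these, 5 were tested and Pf4 was called lower in cKO, at 36, 15, 6 and 8 counts (log2 fold change -1.87, SE 0.63, unadjusted p = 0.0175, edgeR), and without WT 1 its log2 fold change was -1.06 with an unadjusted p of 0.293 (edgeR). Without WT 1 the other 4 genes tested stood at -0.13 (Mrc1), -0.08 (F13a1), -0.08 (Stab1) and 0.19 (Dab2). The median was -1.27. Mrc1 was at 6.62 CPM in WT 1 and 1.44 to 2.03 in the others, F13a1 at 5.58 and 0.663 to 1.70, Dab2 at 24.4 and 6.58 to 11.3, and Stab1 at 30.6 and 14.6 to 16.5. Lyve1 had 65 counts in WT 1 and 6 to 9 in the others. The part of these cells in the WT 1 values of Csf1r, Tyrobp and Fcer1g was not tested.

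**Figure D4:**
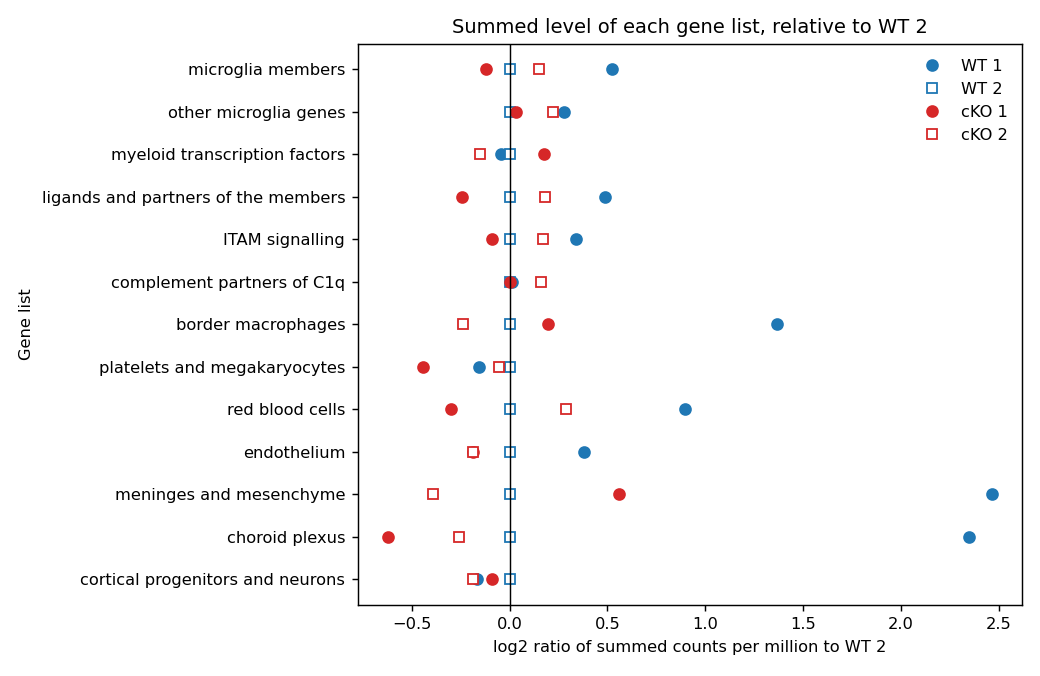
Log2 ratio of the summed CPM of each gene list to that of WT 2, with 1 point per library, WT in blue, cKO in red, replicate 1 filled and replicate 2 open. The list of other white blood cells is not shown. The WT 1 point lies far to the right for meninges and mesenchyme, choroid plexus and border macrophages, less far for red blood cells and the microglia members, and near WT 2 for myeloid transcription factors and cortical genes.

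The meningeal and mesenchymal list (8 genes, 6 tested) had a median of -1.57 and 2 genes called lower, Col1a1 (log2 fold change -2.08, SE 0.75) and Col1a2 (-1.59, SE 0.69), which stood at -0.11 and 0.21 without WT 1. In the same list, Col3a1 was at 101 CPM in WT 1 and 15.6 to 34.4 in the others, and Pdgfra at 15.0 and 5.03 to 7.07. The choroid plexus list (8 genes, 3 tested) had a median of -2.66 and 3 called lower, Htr2c (-3.44, SE 0.89), Aqp1 (-2.66, SE 0.89) and Otx2 (-1.33, SE 0.51), and without WT 1 the values were -1.66, -0.67 and -0.31, with unadjusted p-values of 0.0991, 0.356 and 0.481 (edgeR). Sostdc1, not tested, had 106 counts in WT 1 and 3 to 8 in the others. Red cell and endothelial genes were also highest in WT 1 in sum, by a smaller ratio. The 9 red cell genes, all tested, summed to 1090 and 585 CPM for WT 1 and WT 2 and to 475 and 715 for cKO 1 and cKO 2, with 0 called and a median of -0.37. The embryonic globins Hbb-y (480 CPM in WT 1, 163 to 243 in the others) and Hba-x (120 and 33.3 to 54.4) differed more between WT 1 and WT 2 than Hba-a1 (260 and 125 to 192) and Hbb-bs (141 and 103 to 147), although reads of paralogous globin genes may have been split between them. The 8 endothelial genes, all tested, summed to 225, 173, 152 and 152 CPM, with 0 called and a median of -0.37. Kdr was at 24.5 to 52.4 CPM, Cdh5 at 21.8 to 39.0, Pecam1 at 21.3 to 32.1 and Cldn5 at 19.6 to 23.9. The 8 platelet genes did not share this order in sum. They summed to 19.0 and 21.2 CPM for WT 1 and WT 2 and to 15.6 and 20.4 for cKO 1 and cKO 2. That order was largely the order of Gp1bb, their gene of highest CPM, at 10.4, 14.4, 10.5 and 14.5 in the same libraries. Ppbp (9, 2, 3 and 2 counts), Gp9 (6, 2, 4 and 3) and Itgb3 were highest in WT 1, while Itga2b and Gp1ba were not. Of the 8 platelet genes, 4 were tested and Itgb3 was called lower (2.85, 2.21, 1.15 and 0.884 CPM, log2 fold change -1.30, SE 0.42, unadjusted p = 0.0142, edgeR). Without WT 1 its log2 fold change was -1.12, nearly as large, with an unadjusted p of 0.0914 (edgeR). The list's median was -0.28, and Gp1bb (10.4 to 14.5 CPM), Itga2b (2.47 to 3.59) and Gp1ba (0.932 to 1.83) were not called. No gene of any list had an adjusted p under 0.05.

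Other white blood cells were close to absent. Of 10 measured genes of neutrophils, monocytes, mast cells and B cells, 9 had at most 3 counts in every library, among them Ccr2, Camp and Mpo, and Cd79a, with 9 to 11 counts, was the 1 gene tested (log2 fold change -0.01, SE 0.54). The cortical list (10 genes, all tested, 0 called, median -0.04) summed to 4000 to 4550 CPM, with Tubb3 at 1700 to 2250 CPM, Dcx at 517 to 1110 and Neurog2 at 274 to 300, so the tissue carried its labelled identity in every library. Cd3e, Nkg7, Ly6c2, Ms4a2, C4b and Cbr2 were on the lists and were not analysed here.

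The members did not follow their summed profile equally. Each member is itself part of that sum, so one with many counts lies nearer to it in part by construction. Csf1r made up 26.2% to 33.3% of the summed count of a library, and Aif1 1.3% to 2.31%. The root mean square difference on the log2 scale over the 4 libraries, after centring, was 0.112 for P2ry12, 0.130 for Cx3cr1, 0.138 for Csf1r, 0.144 for C1qa, 0.145 for C1qc and 0.176 for C1qb. It was 0.316 for Trem2, 0.332 for Aif1, 0.338 for Tyrobp and 0.377 for Fcer1g, the members with the fewest counts, against 0.242 for a gene that is level in all libraries. The search for the genes nearest to the summed profile left out every gene on a list, other microglia genes among them. Among 10115 genes on no list with a mean of at least 10 CPM, the 5 nearest were Sulf2 at 0.0242, Dnah1 at 0.0260, Gusb at 0.0262, Tns2 at 0.0374 and Unc5b at 0.0458. With 4 libraries such a match is common: 142 of these genes came nearer than 50% of the distance of a level gene.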

How the data were processed

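Total RNA of E13 telencephalic tissue was sequenced on the Illumina HiSeq 2500 by the study (2 ug per library, 2 WT and 2 cKO). The authors deposited a raw count of reads per gene for each library. The submitters' notes name TopHat2 2.0.12, Bowtie2 2.2.3 and HTSeq 0.6.0 and the build mm9, but a start or end lies within 1 base of GENCODE M21 for 97.3% of the 27232 genes that this annotation holds, so positions were read as GRCm38. A second deposited table holds cKO 1 and WT 1 alone, and its counts of all 21342 shared genes are equal. Its 2 library-scaled columns and the deposited fold changes and p-values were not used. Of 27304 rows, 11 without a gene name (0.0403%) were left out.

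The test across genes was that of edgeR 4.0.16 under R 4.3.3 (filterByExpr, TMM, quasi-likelihood, no covariate, Benjamini-Hochberg adjustment over 16145 genes), tested first on simulated data. The common biological coefficient of variation was 18.7%. CPM is a count per 1000000 counts of the library (17209654 to 18533391). Ratios between libraries carry exact Clopper-Pearson 95% intervals, which cover counting error only. Alternatives were other scalings and filters, DESeq2 1.42.0, a replicate block, a stricter p and leaving out each library. Named genes were all members, the 4 of highest CPM in each other list (a few are not reported here), any called gene, 5 set ligands and the 5 nearest to the summed profile. The members and lists were chosen with earlier results of these data known.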

Additional observations from a re-analysis of the deposited data

How the results depend on the processing

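The number of members called was 0 in every setting run, and so was the number with an adjusted p under 0.05. Of 70 member values that left out no library (7 alternatives each), 69 kept their direction and 1 reversed, Trem2 at 0.02 with the replicate block. Same-numbered libraries deviated together by r = 0.108 across 16145 genes. Nothing says that the numbers mark a litter or a day, so they were not read as a pairing. Of 40 leave-one-out values, 13 reversed in 7 members: the ranges were -0.53 to 0.11 for Cx3cr1, -0.50 to 0.20 for Aif1, -1.04 to 0.16 for Tyrobp, -0.17 to 0.07 for C1qa, -0.25 to 0.41 for C1qb, -0.13 to 0.06 for C1qc and -0.53 to 0.69 for Trem2. Csf1r (-0.70 to -0.19), Fcer1g (-1.17 to -0.23) and P2ry12 (-0.42 to -0.18) kept their sign. With 1 library left in a group, that library is assumed to vary like the others. The summed count moved by less than 1 SD in each alternative (-0.50 to 0.02 with a library left out).

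Over all genes, 131 calls became 405 with no filter beyond 1 count, 72 at 10 counts or more in every library, 65 with DESeq2, 208 with the replicate block, 14 at p of at most 0.01 and 104 to 531 with a library left out (476 without WT 2, 531 without cKO 1). Genes with an adjusted p under 0.05 numbered 0, but 65 without the filter, 5 with the replicate block and 0 to 116 with a library left out (7 without WT 1, 116 without WT 2, 105 without cKO 1). The cause of these shifts was not tested. With 10 to 307 counts per member and library and 2 libraries per group, the 95% interval reached past a 2-fold change for 6 of the members.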

Other observations

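Gpr34, a microglial receptor gene, had 0 counts in cKO 2, which allows up to 3 counts (0.166 CPM), and 15 to 26 counts in the other libraries, while P2ry12 had 39 to 52 counts in all 4. The count of 0 was seen after the values were known and was not tested.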
